A study of Homo sapiens with 14 samples.

Results

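IGFBP2, NRP1, ALDH1A3 and EPHB3 were followed across 14 RNA-seq libraries of MOLM14 cells, 8 from lines in early resistance to the kinase inhibitor gilteritinib and 6 from parental cells, 3 of them untreated and 3 given the drug acutely. These 4 genes, of 39293 gene identifiers in the table and 15756 with enough reads to be tested, were picked because they fell strongly in early resistant lines against parental cells. That contrast chose them, so its values are given here as a description, with no test. All 4 passed the filter on low counts.

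IGFBP2 is a secreted protein that binds insulin-like growth factors and alters their access to receptors. NRP1 is a cell surface co-receptor for class III semaphorins and for vascular endothelial growth factors, and it works together with plexins and VEGF receptors. EPHB3 is a receptor tyrosine kinase that binds ephrin-B ligands on neighbouring cells. ALDH1A3 is an aldehyde dehydrogenase that oxidises retinaldehyde to retinoic acid, the ligand of the RAR receptors, which are regulators of myeloid differentiation.

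MOLM14 is a human line established from acute myeloid leukaemia that carries a FLT3 internal tandem duplication, and gilteritinib inhibits FLT3 and AXL. Each of the 8 early resistant libraries came from a flask of its own. Flasks 5, 6, 7 and 8 were supplemented with FGF2 (FGF2 early, replicates 1 to 4), and flasks 10, 11, 12 and 9 with FLT3 ligand, FL (FL early, replicates 1 to 4), each ligand at 10 ng/mL, and all 8 received 100 nM gilteritinib for 48 h. As controls there were 3 untreated parental libraries and 3 acute libraries, the latter from parental cells given 100 nM gilteritinib for 48 h, 1 without ligand, 1 with FGF2 and 1 with FL, the ligands again at 10 ng/mL. All libraries derive from 1 cell line. Nothing in the labels says that the parental libraries were separate cultures or that the flasks were derived independently, so p-values may measure technical spread only.

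Total estimated counts ran from 25723575 to 33075041 per library. Levels are given in CPM, estimated counts relative to library size after TMM scaling, and a log2 fold change is given ± its standard error (SE). All 10 myeloid markers examined, among them CD33, FLT3, SPI1 and PTPRC, were at 10 CPM or more in every library of the early and parental groups. In the acute libraries 9 of 10 were, the exception being MPO, with a lowest value of 4.66 CPM. The 9 markers of fibroblasts, epithelium, endothelium, lymphocytes and erythroid cells summed to between 0.376 and 2.98 CPM per library, with a highest single value of 1.66 CPM. The summed level of the 10 myeloid markers was 1177 to 1222 CPM in FGF2 early, 1598 to 2461 CPM in FL early, 1202 to 1212 CPM in parental and 1729 to 1862 CPM in acute libraries.

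The members were not the 4 largest falls in an unbroken order. Among 1356 genes that were lower in early than in parental cells past the test threshold, with mean log2 CPM 3 or higher and with all 8 early libraries below all 3 parental libraries, IGFBP2 ranked 2, ALDH1A3 ranked 3, NRP1 ranked 4 and EPHB3 ranked 9. PIM1, a serine/threonine kinase induced downstream of FLT3 signalling, ranked 1 with a log2 fold change of −3.91 ± 0.22. Between NRP1 and EPHB3 stood an identifier without a symbol (−3.58 ± 0.32), the chemokine receptor genes CCR2 (−3.07 ± 0.28) and CCR1 (−2.81 ± 0.13), and the choline transporter gene SLC44A1 (−2.75 ± 0.20). EPHB3 had −2.51 ± 0.18, and FLNC, which encodes the actin cross-linker filamin C and ranked 10, had −2.47 ± 0.45. Without the requirements on abundance and separation the 4 members ranked 75, 78, 82 and 204 among all genes tested. Complete separation of early below parental libraries was met by 13.3% of genes tested, the 4 members among them. The members were chosen for strong falls in this same contrast, so their separation is not a separate result. Separation from parental cells of the FGF2 early flasks alone was met by 26.2% of genes, and of the FL early flasks alone by 17.4%.

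**Figure D1:**
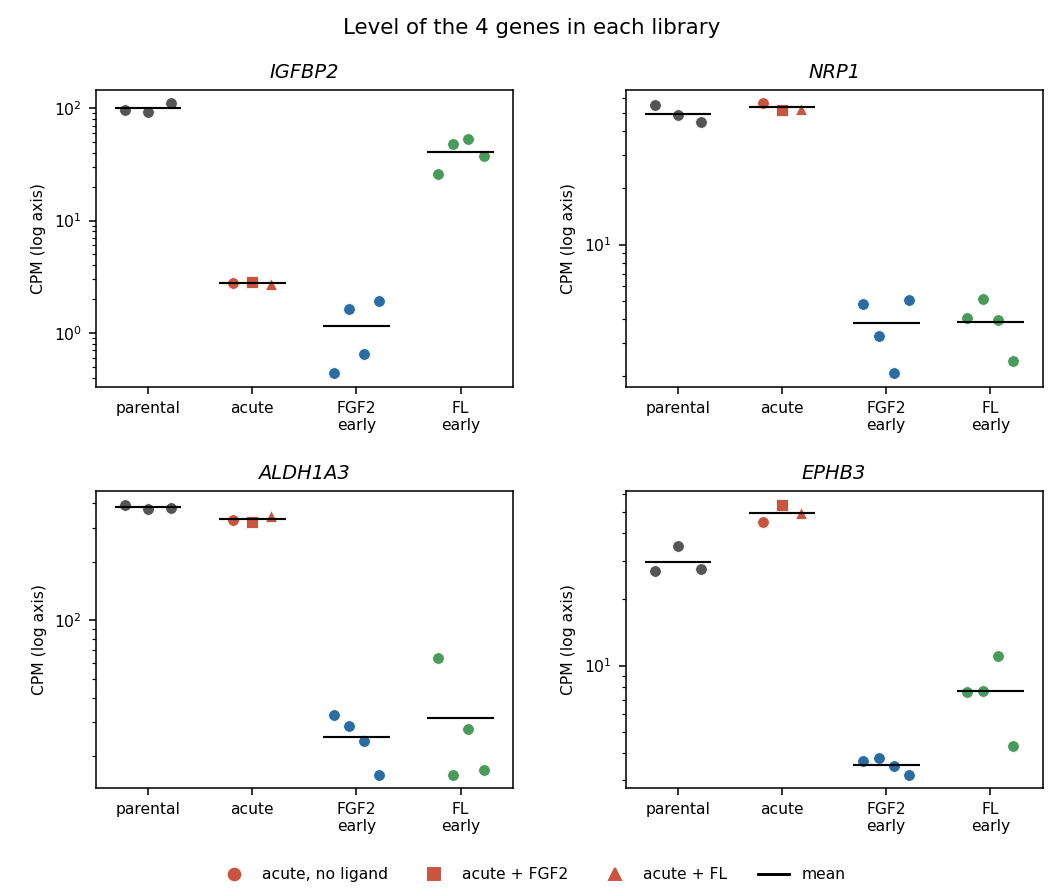
Level of each of the 4 genes in every library, in CPM on a log axis, with 1 panel per gene and its own axis. Points are libraries, horizontal lines are group means, and marker shapes in the acute group show the ligand. IGFBP2 was low in acute and FGF2 early libraries and intermediate in FL early, while NRP1, ALDH1A3 and EPHB3 were high in acute libraries and low in all 8 early flasks.

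IGFBP2, the secreted binding protein, was almost lost in FGF2 early flasks and only partly reduced in FL early flasks. It was also low in the acute libraries, parental cells given the drug for 48 h. The parental libraries held 96.7, 91.6 and 110.8 CPM. The FGF2 early flasks, replicates 1 to 4, held 0.436, 1.62, 0.655 and 1.92 CPM, and the FL early flasks held 25.9, 47.6, 53.4 and 37.4 CPM. Every FL early flask lay above every FGF2 early flask and below every parental library. The 3 acute libraries held 2.75 CPM without ligand, 2.82 CPM with FGF2 and 2.73 CPM with FL. They were nearly identical to each other, below all FL early flasks and above all FGF2 early flasks.

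The order of IGFBP2 levels was therefore parental (99.7 ± 9.92 CPM, SD, n = 3), FL early (41.1 ± 12.1, n = 4), acute (2.77 ± 0.0440, n = 3) and FGF2 early (1.16 ± 0.723, n = 4). Neighbours in that order did not overlap. FL early fully below parental was met by 17.4% of genes tested, and FGF2 early fully below FL early by 9.47%. The shares for FL early against acute and FGF2 early against acute were not counted. The last step rests on few reads, 71 to 84 estimated counts in acute libraries and 15 to 64 in FGF2 early flasks. Against the parental mean the levels were 41.2% in FL early (26% to 53.6% by flask), 2.78% in acute and 1.16% in FGF2 early. IGFBP2 differed between the early lines by a log2 fold change of −5.15 ± 0.34 (95% interval −5.88 to −4.41), FGF2 early minus FL early, with an adjusted p of 1.92e-06 (edgeR quasi-likelihood test, Benjamini-Hochberg over all genes tested). Of all genes tested, 0.413% had a difference between the lines at least as large in either direction. In bulk libraries, fewer cells that express a gene and less RNA per cell cannot be told apart.

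The mean over both early lines hid this split. The log2 fold change of IGFBP2 in early against parental cells was −3.85 ± 0.25, made up of −6.42 ± 0.36 in FGF2 early and −1.28 ± 0.28 in FL early. Acute against parental cells gave −5.17 ± 0.37. Early against acute cells gave 1.32 ± 0.33, since the FL early flasks lay above the acute libraries. The FGF2 early values rest on few reads, with 15 to 64 estimated counts per flask, against 696 to 1607 in the FL early flasks.

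Myeloid markers also differed between the early lines, which bears on every comparison of FGF2 early with FL early flasks. LYZ, the lysozyme gene of mature myeloid cells, was lower in FGF2 early flasks by a log2 fold change of −2.61, and MPO, the granule peroxidase, by −3.65, both with an adjusted p under 0.05 in the edgeR test with Benjamini-Hochberg adjustment. SPI1, the myeloid transcription factor PU.1, was lower by −0.43 and MEIS1, a homeobox factor of immature cells, was higher by 0.54, also past the threshold. The other 6 of the 10 markers did not pass. Against parental cells in the same edgeR fit, MPO was higher in FL early (2.85, adjusted p = 0.000177). It did not pass in FGF2 early (−0.80, adjusted p = 0.0759). LYZ was higher in FL early (1.25, adjusted p = 0.0292) and lower in FGF2 early (−1.36, adjusted p = 0.0111). The part of these marker differences between the lines in the differences of IGFBP2 and EPHB3 was not tested.

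The region upstream of IGFBP2 is shown because this gene had the largest difference between the lines among the 4. The sequence is the RefSeq promoter entry in GRCh38.p14, chr2:216633170-216633394 on the plus strand, 225 bases that run from 250 to 26 bases before the annotated start, so the bases nearest the start are not shown. RefSeq lists 3 entries for IGFBP2, and the one nearest the start of the first-numbered GENCODE transcript was taken. Capitals mark a GC box, GGGCGG or its reverse complement CCGCCC.
IGFBP2 promoter: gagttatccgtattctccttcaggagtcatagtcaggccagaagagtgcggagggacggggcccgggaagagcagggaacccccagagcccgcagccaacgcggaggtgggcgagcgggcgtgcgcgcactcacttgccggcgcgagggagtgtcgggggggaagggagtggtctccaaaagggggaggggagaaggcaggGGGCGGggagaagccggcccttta
It held 18 CpG dinucleotides and 67.6% G and C, and 71.3% of the 35116 promoters in the table had as few CpG or fewer. It held 1 GC box, a motif found in 39.5% of all promoters over the same window on either strand. No CCAAT (30.3% of promoters), TATAAA (8.91%) or TTCNNNGAA, the palindrome bound by STAT factors (6.11%), was found in this window on either strand. The matches describe the letters only, and the deposited data hold no measurement at the promoter.

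NRP1, the semaphorin and VEGF co-receptor, was within the parental range or just above it after 48 h of drug and was low in all 8 early flasks, whichever ligand they were kept with. Parental libraries held 54.8, 48.5 and 44.7 CPM. The acute libraries held 56.3 CPM without ligand, 51.8 CPM with FGF2 and 52.6 CPM with FL. The FGF2 early flasks held 4.83, 3.28, 2.07 and 5.10 CPM, and the FL early flasks 4.05, 5.11, 3.99 and 2.39 CPM. Acute and parental values overlapped, the 2 sets of flasks overlapped throughout, and the early flasks lay far below both control groups. All 8 early flasks below all acute libraries, as here, was met by 25.1% of genes tested.

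The group means of NRP1 were 53.6 ± 2.39 CPM in acute (SD, n = 3), 49.3 ± 5.08 in parental (n = 3), 3.89 ± 1.12 in FL early (n = 4) and 3.82 ± 1.42 in FGF2 early (n = 4). The first pair and the last pair in this order did not differ beyond their spread. As shares of the parental mean, FGF2 early stood at 7.74% and FL early at 7.88%. The log2 fold change against parental cells was −3.68 ± 0.26 for FGF2 early, −3.66 ± 0.26 for FL early and 0.12 ± 0.25 for acute cells, with a 95% interval of −0.42 to 0.65 for the last. FGF2 early minus FL early was −0.02 ± 0.25 (95% interval −0.56 to 0.52), with an adjusted p of 0.973 in edgeR with Benjamini-Hochberg adjustment. The width of this interval means that a modest difference in either direction was not detectable. Early against acute cells gave −3.79 ± 0.20.

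EPHB3, the ephrin-B receptor, was higher in acute than in parental libraries, low in early flasks, and lower in FGF2 early than in FL early. Parental libraries held 26.8, 34.8 and 27.6 CPM. The acute libraries held 44.9 CPM without ligand, 54.0 CPM with FGF2 and 49.3 CPM with FL. The FGF2 early flasks held 3.69, 3.78, 3.48 and 3.18 CPM, and the FL early flasks 7.58, 7.66, 11 and 4.31 CPM. None of the 4 groups overlapped, although FL early replicate 4 came close to the FGF2 early flasks. FL early fully below parental was met by 17.4% of genes tested, and FGF2 early fully below FL early by 9.47%. The FGF2 early flasks were tightly grouped, with the highest 1.19 times the lowest, against 2.55 times in FL early.

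The order of EPHB3 levels was acute (49.4 ± 4.53 CPM, SD, n = 3), parental (29.7 ± 4.40, n = 3), FL early (7.64 ± 2.73, n = 4) and FGF2 early (3.53 ± 0.269, n = 4). As shares of the parental mean, acute libraries stood at 166.1%, FL early at 25.7% (14.5% to 37.0% by flask) and FGF2 early at 11.9%. FGF2 early minus FL early was −1.11 ± 0.21 (95% interval −1.57 to −0.66), with an adjusted p of 0.00383 in edgeR with Benjamini-Hochberg adjustment, and 7.99% of genes tested differed at least as much in either direction. The log2 fold change against parental cells was −3.07 ± 0.22 for FGF2 early, −1.96 ± 0.21 for FL early and 0.73 ± 0.22 for acute cells. Early against acute cells gave −3.25 ± 0.17. Complete separation of acute above parental libraries, met by EPHB3, was met by 35.9% of genes tested.

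The region upstream of EPHB3 is shown because EPHB3 was the other member that differed between the early lines. It is the RefSeq entry in GRCh38.p14 at chr3:184561535-184561759 on the plus strand, over the same 225 positions before the start, with GC boxes (GGGCGG or CCGCCC) in capitals.
EPHB3 promoter: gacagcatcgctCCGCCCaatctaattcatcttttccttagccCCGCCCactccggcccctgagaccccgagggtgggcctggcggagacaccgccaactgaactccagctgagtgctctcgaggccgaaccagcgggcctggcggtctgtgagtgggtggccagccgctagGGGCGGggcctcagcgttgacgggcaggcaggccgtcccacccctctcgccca
This window held 3 GC boxes, 1 CCAAT, 17 CpG dinucleotides and 68.4% G and C, and 68.9% of promoters had as few CpG or fewer. Neither TATAAA nor TTCNNNGAA was found in it on either strand. Over all promoters, 39.5% held a GC box and 30.3% a CCAAT. The ALDH1A3 window lay in annotated exons and is not printed. It held 6 GC boxes, 1 CCAAT and 35 CpG dinucleotides, and ALDH1A3 did not pass the test between the early lines. Any relation of these motifs to the levels was not tested.

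ALDH1A3, the retinoic acid synthesising enzyme, was close to its parental level after 48 h of drug and low in all 8 early flasks. Parental libraries held 394, 374 and 380 CPM. The acute libraries held 327 CPM without ligand, 319 CPM with FGF2 and 346 CPM with FL. The FGF2 early flasks held 32.5, 28.5, 23.9 and 16.0 CPM, and the FL early flasks 64.3, 16.0, 27.7 and 17.0 CPM. The acute libraries lay below the parental ones without overlap, a separation met by 33.4% of genes tested. The 2 sets of flasks overlapped, with FL early replicate 1 above all other flasks.

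The group means of ALDH1A3 were 382 ± 10.1 CPM in parental (SD, n = 3), 331 ± 13.6 in acute (n = 3), 31.3 ± 22.6 in FL early (n = 4) and 25.2 ± 7.08 in FGF2 early (n = 4), and the last pair did not differ beyond its spread. As shares of the parental mean, acute libraries stood at 86.5%, FL early at 8.18% (4.19% to 16.8% by flask) and FGF2 early at 6.60%. FGF2 early minus FL early was −0.30 ± 0.36 (95% interval −1.07 to 0.46), with an adjusted p of 0.630 in edgeR with Benjamini-Hochberg adjustment. Without FL early replicate 1 it was 0.32, with an adjusted p of 0.380, so the direction turned on that flask. Against parental cells the log2 fold change was −3.92 ± 0.40 for FGF2 early, −3.62 ± 0.39 for FL early and −0.21 ± 0.39 (95% interval −1.05 to 0.63) for acute cells. Early against acute cells gave −3.56 ± 0.31.

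**Figure D2:**
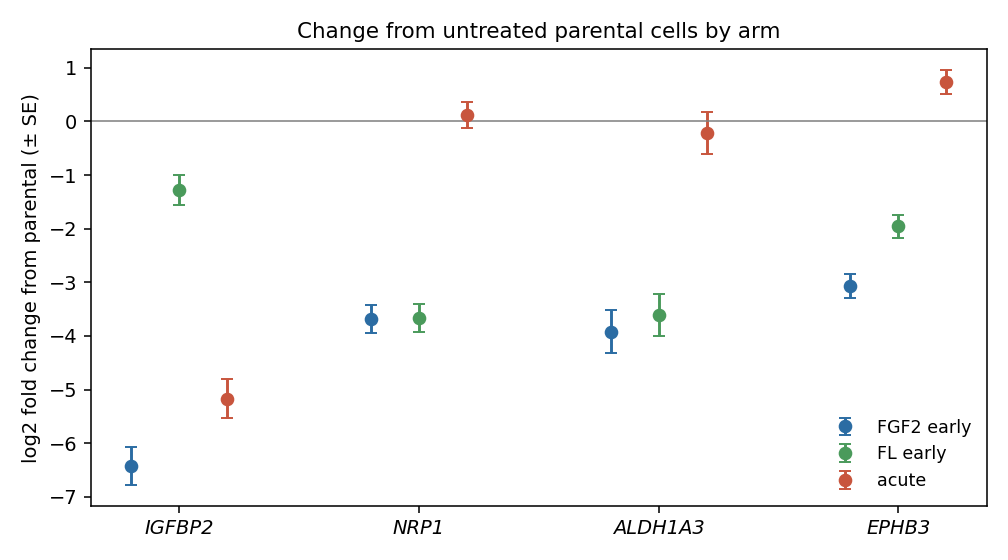
Log2 fold change from untreated parental cells for each gene in FGF2 early, FL early and acute libraries, with bars of ± 1 SE from the edgeR fit of all 14 libraries; the 3 contrasts share the parental libraries. NRP1 (−3.68 and −3.66) and ALDH1A3 (−3.92 and −3.62) were low in both early lines and near 0 in acute cells, IGFBP2 was at −5.17 in acute cells and −1.28 in FL early, and EPHB3 was at 0.73 in acute cells.

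Set side by side, the 4 genes chosen on 1 contrast showed different patterns across the arms, which are not a time course. After 48 h of drug, IGFBP2 was at 2.78% of its parental mean while NRP1, ALDH1A3 and EPHB3 were at 108.6%, 86.5% and 166.1%. The 3 acute libraries lay close together for each gene, whatever the ligand. Against the acute library without ligand, FGF2 gave a log2 difference of 0.03 for IGFBP2, −0.12 for NRP1, −0.03 for ALDH1A3 and 0.27 for EPHB3, and FL gave −0.01, −0.10, 0.08 and 0.14. With 1 library per ligand state there is no test of these differences.

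Between the early lines, 2 of the 4 members passed the test, IGFBP2 and EPHB3, both lower in FGF2 early. Among all genes tested 13.6% passed in either direction, 9.56% being lower and 4.0% higher in FGF2 early. Every FGF2 early flask lay below every FL early flask for the same 2 members, as for 9.47% of genes tested. An exact two-sided permutation test over the 8 flasks gave p = 0.0286 for IGFBP2 and for EPHB3, the smallest that 70 splits of 4 against 4 can give, and 0.0571 for each after Benjamini-Hochberg adjustment over the 4 genes. For NRP1 and ALDH1A3 the exact permutation p after that adjustment was 0.886. By size of the fall from parental cells in FGF2 early, IGFBP2 ranked 5, ALDH1A3 ranked 16, NRP1 ranked 18 and EPHB3 ranked 28 among 1803 genes that were lower, abundant (mean log2 CPM 3 or higher) and fully separated. In FL early NRP1 ranked 2, ALDH1A3 ranked 3, EPHB3 ranked 11 and IGFBP2 ranked 32 among 1168 such genes. Among all genes tested the ranks of IGFBP2, ALDH1A3, NRP1 and EPHB3 were 40, 168, 198 and 281 in FGF2 early and 383, 52, 49 and 181 in FL early.

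**Figure D3:**
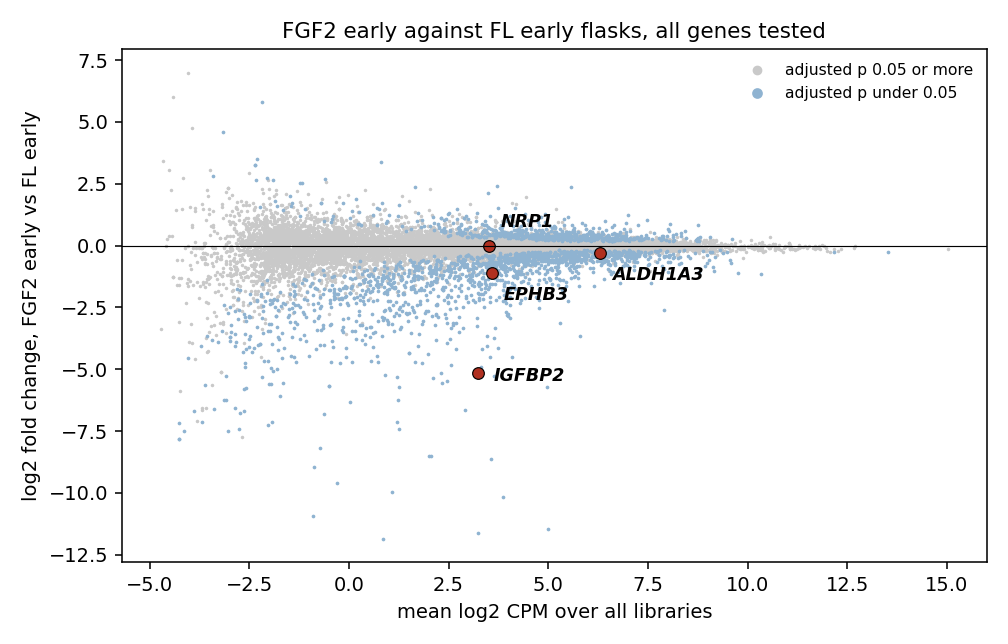
Log2 fold change of FGF2 early over FL early flasks against mean log2 CPM over all libraries for the 15756 genes tested, with genes of adjusted p under 0.05 in blue and the 4 members in red. IGFBP2 (−5.15) lay far below most genes, EPHB3 (−1.11) lay below 0, and NRP1 (−0.02) and ALDH1A3 (−0.30) lay within the grey band.

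The flasks of an early line did not rank alike for the 4 genes. In FGF2 early, replicate 4 was highest for IGFBP2 and NRP1 and lowest for ALDH1A3 and EPHB3. In FL early, replicate 4 was lowest for NRP1 and EPHB3, replicate 1 was lowest for IGFBP2 and highest for ALDH1A3, and replicate 3 was highest for IGFBP2 and EPHB3. The ratio of the highest to the lowest flask was 4.40 for IGFBP2, 2.46 for NRP1, 2.03 for ALDH1A3 and 1.19 for EPHB3 in FGF2 early. In FL early it was 2.07, 2.13, 4.01 and 2.55 in the same order. The spread was thus widest for IGFBP2 in the FGF2 line and for ALDH1A3 in the FL line. In the early flasks NRP1 had 60 to 170 estimated counts, EPHB3 101 to 331 and ALDH1A3 498 to 1729, so none of these 3 was near the floor of detection.

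Profiles over the 14 libraries were compared as the root mean square (RMS) difference of log2 CPM after each gene was centred on its own mean, over 9849 genes whose mean log2 CPM was 3 or higher. NRP1 and ALDH1A3 were 0.591 apart, and EPHB3 was 0.708 from NRP1 and 0.790 from ALDH1A3. IGFBP2 lay 2.69 to 2.94 from the other members. The genes nearest to NRP1 were CCR2 (0.568), SLC44A1 (0.569) and ALDH1A3, against a median of 1.97 over all genes searched. Nearest to ALDH1A3 were NRP1, CCR2 (0.609) and SLC44A1 (0.721), with a median of 2.0. Nearest to EPHB3 were DPYSL3, a cytoskeletal regulator, at 0.424, MTURN at 0.464 and SLC44A1 at 0.477, with a median of 1.6. These points share libraries and scaling, so the distances are a description. The members were also chosen as lower in early than in parental libraries. Closeness among NRP1, ALDH1A3 and EPHB3 was therefore partly set by that choice. CCR2 and SLC44A1 ranked 6 and 8 in the same order of falls, while the medians are over genes not chosen in this way.

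IGFBP2 had no close neighbour. The nearest were the fatty acid desaturase gene FADS2 at 1.27, CKAP4, an endoplasmic reticulum membrane protein gene, at 1.38 and the ornithine aminotransferase gene OAT at 1.59, against a median of 2.76. FADS2 averaged 2.57 CPM in FGF2 early, 58.9 in FL early, 65.5 in parental and 4.99 in acute libraries. CKAP4 averaged 3.05, 54.5, 31.0 and 8.94 CPM in the same groups. As for IGFBP2, the FGF2 early and acute means of both genes lay below their FL early and parental means.

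In the insulin-like growth factor axis, 9 of the 18 genes other than IGFBP2 were expressed enough to test. In early against parental cells 3 rose and 1 fell (edgeR, Benjamini-Hochberg), with a median log2 fold change of 0.21 against 0.01 over all genes tested, of which 13.7% were higher and 16.1% lower. The insulin receptor substrate genes IRS2 (0.78 ± 0.18, adjusted p = 0.00595) and IRS1 (2.35 ± 0.74, adjusted p = 0.0284) rose, as did IGFBP7 (0.37 ± 0.09, adjusted p = 0.00847). The ligand gene IGF1 fell (−1.93 ± 0.45, adjusted p = 0.00585), from a low level of 0.295 to 1.09 CPM in parental libraries. Taken by line against parental cells, where 30.4% of genes tested passed in FGF2 early and 20.7% in FL early, the IRS2 value was 1.6 ± 0.20 in FL early (adjusted p = 0.000196) and −0.04 ± 0.20 in FGF2 early (adjusted p = 0.910). IGFBP7 likewise passed in FL early (0.59 ± 0.10, adjusted p = 0.00168) and had 0.15 ± 0.10 in FGF2 early (adjusted p = 0.292). IRS1 had adjusted p-values of 0.0265 in FGF2 early and 0.0651 in FL early, and IGF1 had 0.0511 and 0.00845. In FGF2 early against FL early flasks 0 were higher and 3 were lower at an adjusted p under 0.05, with a median of 0.09 against 0.00 over all genes. These were IRS2 (−1.64 ± 0.19), IGFBP4 (−0.97 ± 0.29) and IGFBP7 (−0.44 ± 0.09).

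Of the other IGF binding protein genes, IGFBP4 shared part of the order seen for IGFBP2, with smaller differences. IGFBP1 was listed at 0 in all 14 libraries, and IGFBP3, IGFBP5 and IGFBP6 reached at most 0.665 CPM and were not tested. IGFBP4 held 10.9 to 12.7 CPM in parental, 2.79 to 5.24 in acute, 5.37 to 7.63 in FGF2 early and 6.84 to 18.4 in FL early libraries. It fell in acute against parental cells (−1.46 ± 0.34, adjusted p = 0.00170, edgeR with Benjamini-Hochberg adjustment), and in FGF2 early against parental cells (−0.87 ± 0.30, adjusted p = 0.0428). In FL early against parental cells it had 0.10 ± 0.30 (adjusted p = 0.852), and over both lines −0.39 ± 0.27 (adjusted p = 0.294). IGFBP7 held 43.6 to 48.4 CPM in parental, 33.4 to 46.1 in acute, 48.7 to 53.6 in FGF2 early and 62.8 to 76.6 in FL early libraries.

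**Figure D4:**
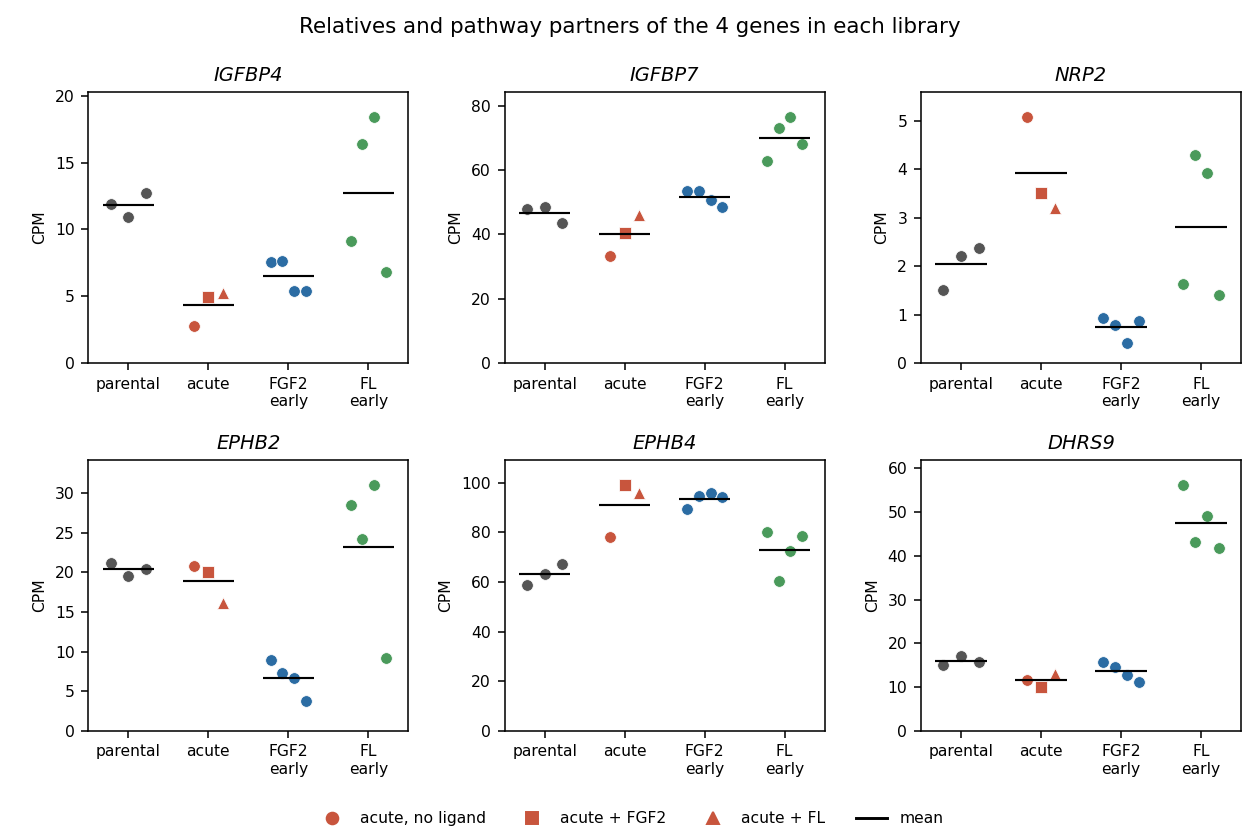
Level in CPM, on linear axes from 0, of IGFBP4, IGFBP7, NRP2, EPHB2, EPHB4 and DHRS9 in every library, with group means as lines and acute ligand states as marker shapes. FGF2 early flasks lay below FL early flasks for IGFBP7, NRP2, EPHB2 and DHRS9 and above them for EPHB4, and for IGFBP4 the sets overlapped.

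Of 39 other genes of the neuropilin, semaphorin and VEGF axis, 27 were tested. In early against parental cells 6 rose and 5 fell, with a median of 0.13 (edgeR, Benjamini-Hochberg). The plexin genes PLXNB2 (0.86 ± 0.07, adjusted p = 3.02e-06) and PLXND1 (0.85 ± 0.11, adjusted p = 0.000130) and the semaphorin gene SEMA3F (2.23 ± 0.63, adjusted p = 0.0171) rose, the last from a very low level. VEGFA, a ligand that NRP1 binds, fell (−0.52 ± 0.08, adjusted p = 0.000498), as did the VEGF receptor genes FLT1 (−2.16 ± 0.31, adjusted p = 0.000266) and FLT4 (−0.70 ± 0.18, adjusted p = 0.0111). GIPC1, which encodes a protein that binds the NRP1 tail inside the cell, fell by 0.55 on the log2 scale (adjusted p = 0.0316). By line against parental cells, GIPC1 had −1.02 ± 0.21 in FGF2 early (adjusted p = 0.00232) and −0.09 ± 0.21 in FL early (adjusted p = 0.808). FLT1 had −3.64 ± 0.40 in FGF2 early (adjusted p = 3.90e-05) and −0.68 ± 0.35 in FL early (adjusted p = 0.186), and FLT4 passed in FGF2 early (adjusted p = 0.0103) but not in FL early (adjusted p = 0.0621). PLXNB2, PLXND1, SEMA3F and VEGFA passed in both lines, in the same direction.

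VEGFA moved the other way in acute cells. It held 227 to 230 CPM in parental, 401 to 531 in acute, 139 to 155 in FGF2 early and 150 to 188 in FL early libraries, and it rose in acute against parental cells (1.04 ± 0.10, adjusted p = 6.30e-07, edgeR with Benjamini-Hochberg adjustment). In that comparison 11 genes of the axis rose and 5 fell, with a median of 0.48 against 0.07 over all genes, of which 32.3% were higher and 30.3% lower. In early against acute cells 7 were higher and 11 lower, with a median of −0.30 against −0.04 over all genes, of which 32.1% were higher and 33.9% lower.

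NRP2, the paralogue of NRP1, was scarce. It held 1.51 to 2.38 CPM in parental, 3.20 to 5.08 in acute, 0.414 to 0.931 in FGF2 early and 1.40 to 4.29 in FL early libraries. It was lower in FGF2 early than in FL early (−1.90 ± 0.38, adjusted p = 0.00537, edgeR with Benjamini-Hochberg adjustment), a contrast in which NRP1 had −0.02 ± 0.25. FLT1 (−2.96 ± 0.39), GIPC1 (−0.94 ± 0.19) and PLXNB1 (−0.88 ± 0.24) were also lower in FGF2 early. In all, 0 genes of the axis were higher and 6 lower in that contrast, with a median of −0.12.

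Of 26 other genes of retinoid metabolism and signalling, 13 were tested. In early against parental cells 2 rose and 4 fell, with a median of −0.06 (edgeR, Benjamini-Hochberg). CYP26B1, which degrades retinoic acid, fell most (−3.20 ± 0.44, adjusted p = 0.000208), from 6.56 to 8.92 CPM in parental libraries to 0.207 to 0.931 in FGF2 early and 0.409 to 2.69 in FL early. It was also lower in acute than in parental cells (−7.63 ± 0.89, adjusted p = 4.03e-06), with 0 to 0.103 CPM, near the floor of detection, so the size of that value is uncertain. The retinal reductase genes RDH14 (−0.76 ± 0.15), DHRS3 (−0.72 ± 0.21) and DHRS4 (−0.39 ± 0.10) fell over both lines. In FGF2 early alone they had −1.17 ± 0.18, −1.33 ± 0.24 and −0.56 ± 0.11, each past the threshold, and in FL early −0.35 ± 0.18, −0.11 ± 0.24 and −0.22 ± 0.11, with adjusted p-values of 0.171, 0.786 and 0.182. DHRS9, a retinol dehydrogenase gene (0.68 ± 0.12, adjusted p = 0.00137), and the nuclear receptor gene RXRA (0.55 ± 0.11, adjusted p = 0.00319) rose. Both passed in FL early against parental cells (1.58 ± 0.14 and 0.77 ± 0.13) and not in FGF2 early (−0.23 ± 0.14, adjusted p = 0.226, and 0.32 ± 0.13, adjusted p = 0.0662). CYP26B1 passed in both lines.

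The other retinaldehyde dehydrogenase genes were scarce or not detected. ALDH1A1 was listed at 0 in all libraries, and ALDH1A2 reached 0.656 CPM in an acute library and at most 0.145 CPM in an early flask. Between the early lines DHRS9 had the smallest adjusted p of the retinoid genes, with 11.2 to 15.8 CPM in FGF2 early, 41.7 to 56.2 in FL early, 15 to 17.1 in parental and 10.1 to 12.9 in acute libraries (FGF2 early minus FL early −1.80 ± 0.13, adjusted p = 2.63e-06, edgeR with Benjamini-Hochberg adjustment). DHRS3 (−1.22 ± 0.23), RDH14 (−0.82 ± 0.17) and RXRA (−0.45 ± 0.12) were also lower in FGF2 early, and RARA, a retinoic acid receptor gene, was higher (0.30 ± 0.07). In total 1 was higher and 5 were lower in that contrast, with a median of −0.34.

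Of the 16 aldehyde dehydrogenase genes outside the retinaldehyde group, 14 were tested. In early against parental cells 2 rose, ALDH3B1 (0.91 ± 0.09) and ALDH16A1 (0.59 ± 0.18), and 1 fell, ALDH5A1, the succinic semialdehyde dehydrogenase (−0.84 ± 0.28), with a median of −0.10. The adjusted p-values were 2.40e-05, 0.0275 and 0.0393 (edgeR, Benjamini-Hochberg). By line, ALDH5A1 had −1.65 ± 0.33 in FGF2 early against parental cells (adjusted p = 0.00245) and −0.02 ± 0.33 in FL early (adjusted p = 0.966). ALDH3B1 passed in both lines, and ALDH16A1 had adjusted p-values of 0.0338 in FGF2 early and 0.0656 in FL early. Between the early lines ALDH5A1 (−1.63 ± 0.32) and ALDH3B1 (−0.37 ± 0.09) were lower in FGF2 early and 0 genes were higher.

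Of 21 other Eph receptor and ephrin genes, 11 were tested. In early against parental cells 1 rose, EPHB4 (0.39 ± 0.09, adjusted p = 0.00700), and 1 fell, EPHA1 (−0.74 ± 0.22, adjusted p = 0.0196), with a median of −0.09 (edgeR, Benjamini-Hochberg). Both passed in FGF2 early against parental cells (0.57 ± 0.10 and −1.23 ± 0.25) and not in FL early (0.21 ± 0.10, adjusted p = 0.174, and −0.26 ± 0.25, adjusted p = 0.506). EPHB2 fell in FGF2 early (−1.62 ± 0.33, adjusted p = 0.00259) and had 0.19 ± 0.33 in FL early (adjusted p = 0.726). The other receptors of the EPHB class are given by their levels. EPHB4 held 58.9 to 67.4 CPM in parental, 78.0 to 99.2 in acute, 89.4 to 95.9 in FGF2 early and 60.2 to 80.2 in FL early libraries. EPHB2 held 19.6 to 21.3 CPM in parental, 16.1 to 20.8 in acute, 3.75 to 8.93 in FGF2 early and 9.24 to 31.1 in FL early libraries, where replicate 4 was the lowest, as for EPHB3. EPHB1 reached at most 0.584 CPM and EPHB6 at most 2.19 CPM, with no call in any of the 4 comparisons.

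Between the early lines, EPHB2 was lower in FGF2 early (−1.81 ± 0.32, adjusted p = 0.00232, edgeR with Benjamini-Hochberg adjustment), as was EPHA1 (−0.97 ± 0.24, adjusted p = 0.0155). EPHB4 (0.36 ± 0.09, adjusted p = 0.0219) and the ligand gene EFNA3 (0.76 ± 0.22, adjusted p = 0.0329) were higher. In total 3 Eph and ephrin genes were higher and 2 lower, with a median of −0.39.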

How the data were processed

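RNA of MOLM14 cells was sequenced as stranded poly(A) libraries, per the labels' protocols. The authors deposited estimated counts per Ensembl gene, made with kallisto against GRCh37 per the submitters' processing notes; the kallisto version and how transcripts were summed are not given in the sources used here. Of 39293 identifiers, 33353 (84.9%) matched a symbol, and the others held 4.63% to 5.53% of a library's counts.

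Counts were rounded to whole numbers and filtered with filterByExpr (minimum count 10, minimum total 15), leaving 15756 genes. The fit held all 14 libraries as 4 arms (edgeR 4.0.16 under R 4.3.3; quasi-likelihood test, robust, on TMM-scaled libraries; Benjamini-Hochberg over all genes, threshold 0.05). Early against a control is the mean of both early arms minus that control. The acute arm pools 3 ligand states, so its spread includes ligand differences. SE is the log2 fold change divided by the square root of F. The scripts were tested on simulated counts. Alternatives were DESeq2 1.42.0 with its own size factors, DESeq2 size factors in edgeR, limma-voom 3.58.1, no filter, each library left out, a replicate block, fewer libraries in the fit, the acute library without ligand alone, and an exact permutation test.

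The members and gene lists were chosen with earlier results of these data known. Genes were named by rule: the members, the neighbours in the order of falls, up to 6 genes per list with the smallest adjusted p in early against parental cells and up to 4 in FGF2 early against FL early, the 3 nearest profiles per member, and close relatives. Marker genes were taken from the marker lists. Members get a test only between the early lines. The choice of members used the mean of both early arms against parental cells, not the difference between these arms. The tested contrast still draws on the same early flasks that the choice used. The other contrasts share the early mean or the parental side with the choice, so members get no test there. Promoter sequences came from RefSeq (GRCh38.p14), which matched 3 of the 4 members.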

Additional observations from a re-analysis of the deposited data

Results flagged for a closer look

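Among 64 groups of 4 flasks (32 genes), 3 held 1 flask set apart from the other 3 relative to the spread of the group. Chance gives about 1 in 20 groups, so this count is near what chance gives. IRS1 was 1.44 CPM in FGF2 early replicate 4 against 0.698 to 0.810 CPM in the others. DHRS3 was 4.0 CPM in FGF2 early replicate 3 against 2.74 to 2.88 CPM. RARA was 39.1 CPM in FGF2 early replicate 1 against 37.5 to 37.7 CPM. None of the 4 members had such a flask.

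The change from parental cells differed between FGF2 early and FL early flasks, by the edgeR test of the difference itself with Benjamini-Hochberg adjustment, for 2 members and several list genes. The parental libraries cancel here, so this repeats the FGF2 early against FL early contrast given above. In that contrast 13.6% of all genes tested passed. List genes were named in part for a small adjusted p in it. For IGFBP2 the difference was −5.15 and for EPHB3 it was −1.11 on the log2 scale. In the IGF axis it was −1.64 for IRS2, −0.97 for IGFBP4 and −0.44 for IGFBP7. In the neuropilin, semaphorin and VEGF axis it was −1.90 for NRP2, −0.88 for PLXNB1, −2.96 for FLT1 and −0.94 for GIPC1. Among retinoid genes it was −0.82 for RDH14, −1.22 for DHRS3, −0.34 for DHRS4, −1.80 for DHRS9, 0.30 for RARA and −0.45 for RXRA. Among other aldehyde dehydrogenase genes it was −0.37 for ALDH3B1 and −1.63 for ALDH5A1, and among Eph and ephrin genes −0.97 for EPHA1, −1.81 for EPHB2, 0.36 for EPHB4 and 0.76 for EFNA3.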

How the results depend on the processing

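IGFBP2 and EPHB3 kept their direction and their call between the early lines under every alternative fit. Under the exact permutation test, IGFBP2 (−5.32) and EPHB3 (−1.04) did not pass after adjustment over the 4 genes (0.0571), although each had the smallest unadjusted p that 4 against 4 flasks allow (0.0286). With only 2 of the 4 genes at that smallest p, the adjusted p could not be below 0.0571, whatever the size of the differences. Leaving out each library in turn gave −5.52 to −4.85 for IGFBP2, −1.31 to −0.88 for EPHB3, −0.19 to 0.18 for NRP1 and −0.52 to 0.32 for ALDH1A3. The sign changed for NRP1 without FGF2 early replicate 2 or 3 or FL early replicate 1 or 2, and for ALDH1A3 without FL early replicate 1. Neither gene passed the test in any of these fits. Log2 fold changes of the members in the other comparisons kept their direction throughout.

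The number of genes higher in FGF2 early was 630, with 995 under DESeq2 and 303 to 1214 when a library was left out. It was 303 without FL early replicate 3, 306 without FGF2 early replicate 4, 320 without FL early replicate 2, 321 without FGF2 early replicate 3, 353 without FGF2 early replicate 1 and 1214 without FL early replicate 4. Genes higher in early than in parental cells numbered 1136 to 2393 and genes lower 1549 to 2944 over the same fits. Without parental replicate 1 they were 1163 and 1621, and without parental replicate 2 they were 1136 and 1549. The cause was not tested.

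Replicate numbers did not pair the samples, since deviations of same-numbered libraries correlated between −0.09 and 0.07. With the replicate block, FGF2 early against FL early gave 669 genes higher and 1279 lower, and IGFBP2 and EPHB3 had −5.15 and −1.06. Depth limits the FGF2 early values of IGFBP2 and the list genes under 1 CPM.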
